A study of Mus musculus with 28 samples.

Results

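The circadian clock genes described here were Clock, Arntl, Per1, Per2, Per3, Cry1, Cry2, Nr1d1, Nr1d2 and Dbp, and what was measured at them was accessible chromatin in mouse Müller cells. The 10 genes were chosen by name, not by any value in the data. An accessible region belonged to a gene when it overlapped the gene as annotated in GENCODE M21 (mm10) or the 10 kb to either side of it. This gave 40 of the 46189 regions in the control list and 58 of the 64883 regions in the db/db list, at 10 of 21938 annotated protein-coding genes. All 40 control regions had a partner in the db/db list, and 18 further regions were in the db/db list without a control partner.

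Müller cells, the radial glia that span the retina and maintain its neurons, were purified from retinae of 6-month-old mice and profiled by ATAC-seq, in which a transposase cuts and tags open chromatin. Control mice, labelled WT, were compared with db/db mice, which lack a working leptin receptor through a homozygous Lepr mutation and become obese and diabetic. According to the methods, the animals were of both sexes and came from BKS lines of 2 suppliers bred together, controls were wild type or heterozygous, and Müller cells were taken as the CD29+ cells left after CD11b+ microglia and CD31+ endothelial cells had been removed, a fraction in which a few astrocytes can remain. The labels name 2 samples per genotype, and 1 peak list per genotype was used here, so differences between the genotypes have no replicate check and are given without p-values. Mice were kept in a light-dark cycle, and the time of day at which the cells were taken is not given in the sources used here, so clock phase and genotype cannot be told apart. The paper also calls some carry-over of photoreceptors into the fraction unavoidable. The defining genes of Müller cells, among them Glul, Rlbp1 and Kcnj10, had a region at the promoter in both lists for 10 of 10 genes. Their signal percentiles were 4.54 to 52.2 in the control and 6.22 to 55.5 in the db/db list. Of 10 rod genes, 9 had a promoter region in the control and 7 in the db/db list, at signal percentiles of 5.76 to 80.3 and 1.85 to 75.7. The counts were 1 of 6 for microglia, 2 of 6 for vascular cells and 4 of 6 for other retinal neurons in both lists. Percentiles in the control and db/db lists were 65.5 and 76.0 for microglia and 17.2 to 23.4 and 36.0 to 39.7 for vascular cells. For neurons they were 19.5 to 66.8 and 46.6 to 84.4. The highest values of rods, microglia and neurons were above the highest of Müller cells in both lists. Those of vascular cells were below it. Median percentiles in the control and db/db lists were 34.34 and 49.75 for Müller cells and 28.02 and 29.97 for rods. They were 20.31 and 37.85 for vascular cells and 52.07 and 66.68 for neurons, while microglia rest on 1 gene. The part of other cell types in the values below was not tested. In bulk samples a different share of a cell type and a different accessibility per cell cannot be told apart.

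The molecular clock is a loop of transcription and feedback that runs in most cell types, glia included, and it gives the retina a daily rhythm in light response and metabolism. CLOCK and BMAL1, the product of Arntl, form the activator that binds E-box elements. They drive the Per and Cry genes, whose proteins return to the nucleus and block the activator, and they drive Nr1d1 and Nr1d2, which encode the REV-ERB nuclear receptors that repress Arntl through ROR elements. Dbp is an output gene whose product, a PAR bZIP factor, activates genes through D-box elements. The activator arm is therefore Clock and Arntl, the repressor arm the Per, Cry and Nr1d genes, and Dbp stands for the output.

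The elements of this loop can be read in the promoters of some members, and the stretches that hold them are shown because each lies inside a region accessible in both genotypes. Promoter sequences of RefSeq (GRCm38, the build of the lists), from 250 bases before to 50 after a start site, were matched for 9 of the 10 genes, and Per2 had no entry. For Per1 the entries were for internal starts at positions 69098949 and 69100152. The stretch at its annotated gene start, position 69095217, was therefore not searched. Capitals mark an E-box (CACGTG), an E'-box (CACGTT, which reads AACGTG on the other strand) or a D-box (TTATGTAA or TTACGTAA), searched on both strands.
Cry1 (chr10:85185079-85185163, minus strand, 109 to 25 bases before the start): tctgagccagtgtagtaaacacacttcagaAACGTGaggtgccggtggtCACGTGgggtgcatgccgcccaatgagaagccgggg
Cry2 (chr2:92434200-92434265, minus strand, 196 to 131 bases before the start): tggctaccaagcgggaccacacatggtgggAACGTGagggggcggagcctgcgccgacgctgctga
Nr1d1 (chr11:98775378-98775435, minus strand, 58 to 1 bases before the start): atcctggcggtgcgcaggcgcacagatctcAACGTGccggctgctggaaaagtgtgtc
Per1 (chr11:69098753-69098818, plus strand, 196 to 131 bases before an internal start at position 69098949): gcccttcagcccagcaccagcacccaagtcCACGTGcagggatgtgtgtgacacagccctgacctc
Per3 (chr4:151044786-151044900, minus strand, 235 to 121 bases before the start): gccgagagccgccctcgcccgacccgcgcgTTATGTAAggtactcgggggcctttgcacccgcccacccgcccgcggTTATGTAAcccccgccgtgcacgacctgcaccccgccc
The E-box was found in 2 of the 9 matched members, against 8.09% of 27025 genes, and the E'-box in 3 of 9, against 5.44% of genes. Cry1 held both, at 79 and 60 bases before its start. Per3 was the member with D-boxes, at 205 and 158 bases before its start, a string found in 1.23% of genes. The ROR element (TAGGTCA or TGGGTCA) was found once, in Arntl, 30 bases after a start site, and occurs in 7.35% of genes. The cAMP response element TGACGTCA and the glucocorticoid receptor-type string ACANNNTGT were found in 0 of 9 members, against 2.03% and 7.90% of genes. These are matches of letters in a 300-base window and not measured binding, and a string outside the window was not looked for.

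Each region carries a signal, the fold enrichment of the peak, and its signal percentile is the share of regions of the same list with a lower signal. Percentiles were used because signals were not known to be comparable between the lists. The db/db list is longer and its additional regions are weak, with a median percentile of 23.5, so a region found in both lists tends to stand at a higher percentile there. Over all 43519 regions with a single partner, the median change was 8.53 points upwards (SD 11.2). A second measure was therefore added after the data were seen. It is named shared rank, and it is the percentile of a region among these 43519 regions only, in each list. Its change had a median of 0.09 points (SD 10.6), and the middle 50% of regions changed by between -4.99 and 5.26 points. All changes below are db/db minus control. Coordinates are mm10 and span the region in both lists, and distances run from the annotated gene start to the summit.

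In the activator arm, Clock had 2 regions and both were shared. Clock (ENSMUSG00000029238.11, chr5:76209868-76304792, minus strand) encodes the bHLH partner of BMAL1. The promoter region, chr5:76303669-76305335, covered the start and had its summit 782 bp into the gene. Its signal percentile was 44.5 in the control and 43.0 in the db/db list, and its shared rank went from 42.4 to 25.8, a change of -16.6 points. The other region, chr5:76310032-76310717, lay 5490 bp upstream, at percentiles of 90.4 and 91.1 and a shared rank change of -3.10. The gene body of 94925 bp held no further region in either list.

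Arntl (ENSMUSG00000055116.8, chr7:113207465-113314126, plus strand) had 5 control and 10 db/db regions, the most of any member in the db/db list. The promoter region, chr7:113206844-113208430, stood at percentiles of 40.0 and 47.7, with a shared rank change of -7.53. An upstream region at 5683 bp, chr7:113201452-113201989, was at 64.2 and 64.7, with a shared rank change of -12.6. Within the gene the order was the reverse, and the 3 shared regions there rose in both measures. The region 43799 bp into the gene, chr7:113250567-113251542 in an intron, went from percentile 33.7 to 58.5 and up by 10.8 points of shared rank. The region at 35453 bp, chr7:113242140-113243185, overlapped at its summit an exon of a noncoding Arntl transcript and went from 52.0 to 68.7, or 5.18 points of shared rank. The strongest Arntl region in both lists was intronic too, at 53180 bp (chr7:113260363-113260986), at 86.2 and 93.8 and 5.43 points of shared rank. Ranked by -log10 p, the region at 35453 bp fell instead, with a shared rank change of -4.62 points. On that ranking the rise at 43799 bp was smaller, at 1.28 points, and that at 53180 bp was 5.50.

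The 5 regions of Arntl found in the db/db list only were all weak. One lay 4782 bp upstream (chr7:113202548-113202804, percentile 1.4). The others were intronic, at 10659 bp (chr7:113217937-113218349, percentile 5.68), 31113 bp (chr7:113238452-113238699, 4.79), 65323 bp (chr7:113272589-113273067, 16.8) and 104505 bp (chr7:113311849-113312114, 16.8).

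Per1, a PERIOD gene of the repressor arm that light and stress hormones induce rapidly, had 7 control and 8 db/db regions (ENSMUSG00000020893.17, chr11:69095217-69109960, plus strand). The region at its start, chr11:69094572-69095463 with the summit 29 bp upstream, was low in both lists, at percentiles of 25.1 and 36.8, and its shared rank changed by -2.88. Ranked by -log10 p, the same region was high, at 92.2 and 94.2. The region that holds the E-box shown above, chr11:69098637-69099087 at an internal start 3575 bp into the gene, was at 5.23 and 10.5. Further intronic regions were at 2022 bp (chr11:69096840-69097387, 0.38 and 5.37) and 4789 bp (chr11:69099826-69100262, 1.71 and 3.50). By -log10 p the intronic region at 2022 bp rose by 23.2 points of shared rank, while by signal it changed by 1.59.

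On the 3' side of Per1, the region 15690 bp from the start (chr11:69110400-69111292) fell from percentile 54.2 to 44.8. In shared rank it fell by 24.7, the lowest value among the 40 shared regions of clock genes, and by 24.4 when ranked by -log10 p. A region at 22746 bp (chr11:69117617-69118345) was at 2.89 and 8.02, and a db/db-only region stood beside it at 23331 bp (chr11:69118398-69118670, percentile 3.46). The region 6693 bp upstream, chr11:69088039-69089256, is within 1 kb of a start site of Vamp2, which encodes a synaptic vesicle protein, and was at 39.1 and 46.4.

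Per2, the second PERIOD gene (ENSMUSG00000055866.9, chr1:91415982-91459324, minus strand), had 3 control and 6 db/db regions. The promoter region, chr1:91459001-91459922 with the summit 109 bp upstream, was at percentiles of 73.9 and 69.1. Its shared rank changed by -16.8, from 72.5 to 55.7, the lowest value among the promoters of the 10 genes, whereas by -log10 p it changed by -1.0. An intronic region at 30495 bp (chr1:91428689-91429116) was at 64.2 and 71.1. Among the db/db-only regions, 3 belonged to Per2. One in an intron at 22872 bp (chr1:91436136-91436968) reached percentile 34.0, and another in an intron at 3437 bp (chr1:91455515-91456215) was at 1.43. The remaining pair lay downstream of Per2, within 1 kb of a start site of Hes6, a bHLH gene of the Hes family. That at 45984 bp (chr1:91412356-91413737) was shared, at 86.2 and 85.8, and that at 45043 bp (chr1:91413903-91414665) was db/db-only, at 7.90.

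Per3, the third PERIOD gene (ENSMUSG00000028957.12, chr4:151003652-151044665, minus strand), had its promoter region, the one with both D-boxes, at chr4:151044098-151045230 and at percentiles of 84.2 and 87.1. Its 2 db/db-only regions were at 17521 bp (chr4:151027010-151027439, percentile 54.6) and 37572 bp (chr4:151006978-151007270, 31.2). The former was the strongest db/db-only region of any clock gene.

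Cry1, which encodes a cryptochrome that blocks CLOCK and BMAL1 (ENSMUSG00000020038.10, chr10:85131700-85185064, minus strand), had 3 control and 5 db/db regions. The promoter region with both E-box types, chr10:85184374-85185686, was at percentiles of 69.1 and 66.2. Its shared rank changed by -15.8, or by -5.88 by -log10 p. It was also the single shared region whose summit moved by more than 50 bp between the lists, by 350 bp. The intronic region at 23114 bp (chr10:85161758-85162234) was at 46.6 and 50.0 and changed by -11.8 points of shared rank, and by -13.3 by -log10 p. Both db/db-only regions of Cry1 were weak, at 1207 bp (chr10:85183643-85184025, percentile 1.67) and 20154 bp (chr10:85164744-85165663, 12.5). The strongest region in the window of Cry1, chr10:85127528-85128399 at 98.0 and 97.5, lay 56990 bp from its start at the promoter of Mterf2, a gene for a mitochondrial transcription termination factor.

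Cry2, the other cryptochrome (ENSMUSG00000068742.11, chr2:92403646-92434043, minus strand), had 6 control and 7 db/db regions, and the direction of the change in signal differed along it. The promoter region, chr2:92433625-92434645 with its E'-box, was at percentiles of 85.8 and 83.0 and changed by -10.03 points of shared rank, but by -0.42 when ranked by -log10 p. At the 3' end, the region at 31057 bp (chr2:92402624-92403398), just past the gene, went from percentile 10.7 to 43.3. This was the largest rise of any clock gene region in the lists, and it was 16.3 points of shared rank by signal and 25.5 by -log10 p. Its neighbour at 32761 bp (chr2:92400981-92401618), within 1 kb of a start of Mapk8ip1, a scaffold gene of the JNK pathway, went from 34.0 to 52.4. Inside the gene, the regions at 10220 bp (chr2:92423460-92424398), 8947 bp (chr2:92424737-92425437) and 5942 bp (chr2:92427827-92428276) were at 8.24, 2.16 and 15.0 in the control and at 24.9, 7.88 and 20.7 in the db/db list. The db/db-only region at 2642 bp (chr2:92431263-92431534), near an alternative start, was the weakest of all, at percentile 0.27.

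Nr1d1, which encodes REV-ERB alpha (ENSMUSG00000020889.11, chr11:98767932-98775333, minus strand), is a gene of 7402 bp. With the 10 kb to each side it had 5 control and 7 db/db regions, and most were weak. The region over its start, chr11:98774876-98775729, holds the E'-box shown above and stood at percentiles of only 4.37 and 6.65. The stronger region near a start site lay 1315 bp into the gene, chr11:98773649-98774411, at 36.1 and 41.3 with a shared rank change of -9.85. The regions at 6668 bp (chr11:98768216-98768991, 4.39 and 8.69), 7854 bp (chr11:98766712-98767647, 0.65 and 3.35) and 8227 bp upstream (chr11:98783042-98783826, 16.3 and 24.8) were shared. The db/db-only regions were 9183 bp downstream of the start (chr11:98765649-98766310, 2.64) and 6687 bp upstream (chr11:98781886-98782426, 2.54). Nr1d2, for REV-ERB beta (ENSMUSG00000021775.11, chr14:18204054-18239127, minus strand), had a shared promoter region, chr14:18238151-18239651, at 65.2 and 77.4, and a db/db-only intronic region at 28140 bp (chr14:18210827-18211115) at 43.9. Its promoter was the single member promoter that rose in shared rank, by 3.42 points, and by -log10 p the change was 0.04.

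Dbp (ENSMUSG00000059824.12, chr7:45705088-45710203, plus strand) had 7 control and 8 db/db regions, and those at the gene itself were near the bottom of both lists by signal. The region over the start, chr7:45704691-45705672, was at percentiles of 6.21 and 5.74. By -log10 p it stood at 75.6 and 68.5, and its shared rank changed by -20.6 on that ranking, against -3.55 by signal. The strongest region within 1 kb, chr7:45703924-45704551 at 684 bp upstream, was at 9.91 and 17.2. The latter is also within 1 kb of a start site of Car11, a carbonic anhydrase-related gene, as is the region at 4136 bp upstream (chr7:45700852-45701047, 0.20 and 0.95). Regions in an intron at 978 bp (chr7:45705870-45706227) and in a coding exon at 1855 bp (chr7:45706820-45707119) were at 0.56 and 0.40 in the control and at 4.10 and 2.07 in the db/db list. The higher regions of the window were at the starts of Sphk2, a sphingosine kinase gene, and Rpl18, a ribosomal protein gene. These were chr7:45714798-45715556 at 51.2 and 56.3 and chr7:45717680-45718569 at 18.5 and 22.9, while chr7:45712067-45712751, near Sphk2 alone, was db/db-only at 2.57.

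**Figure D1:**
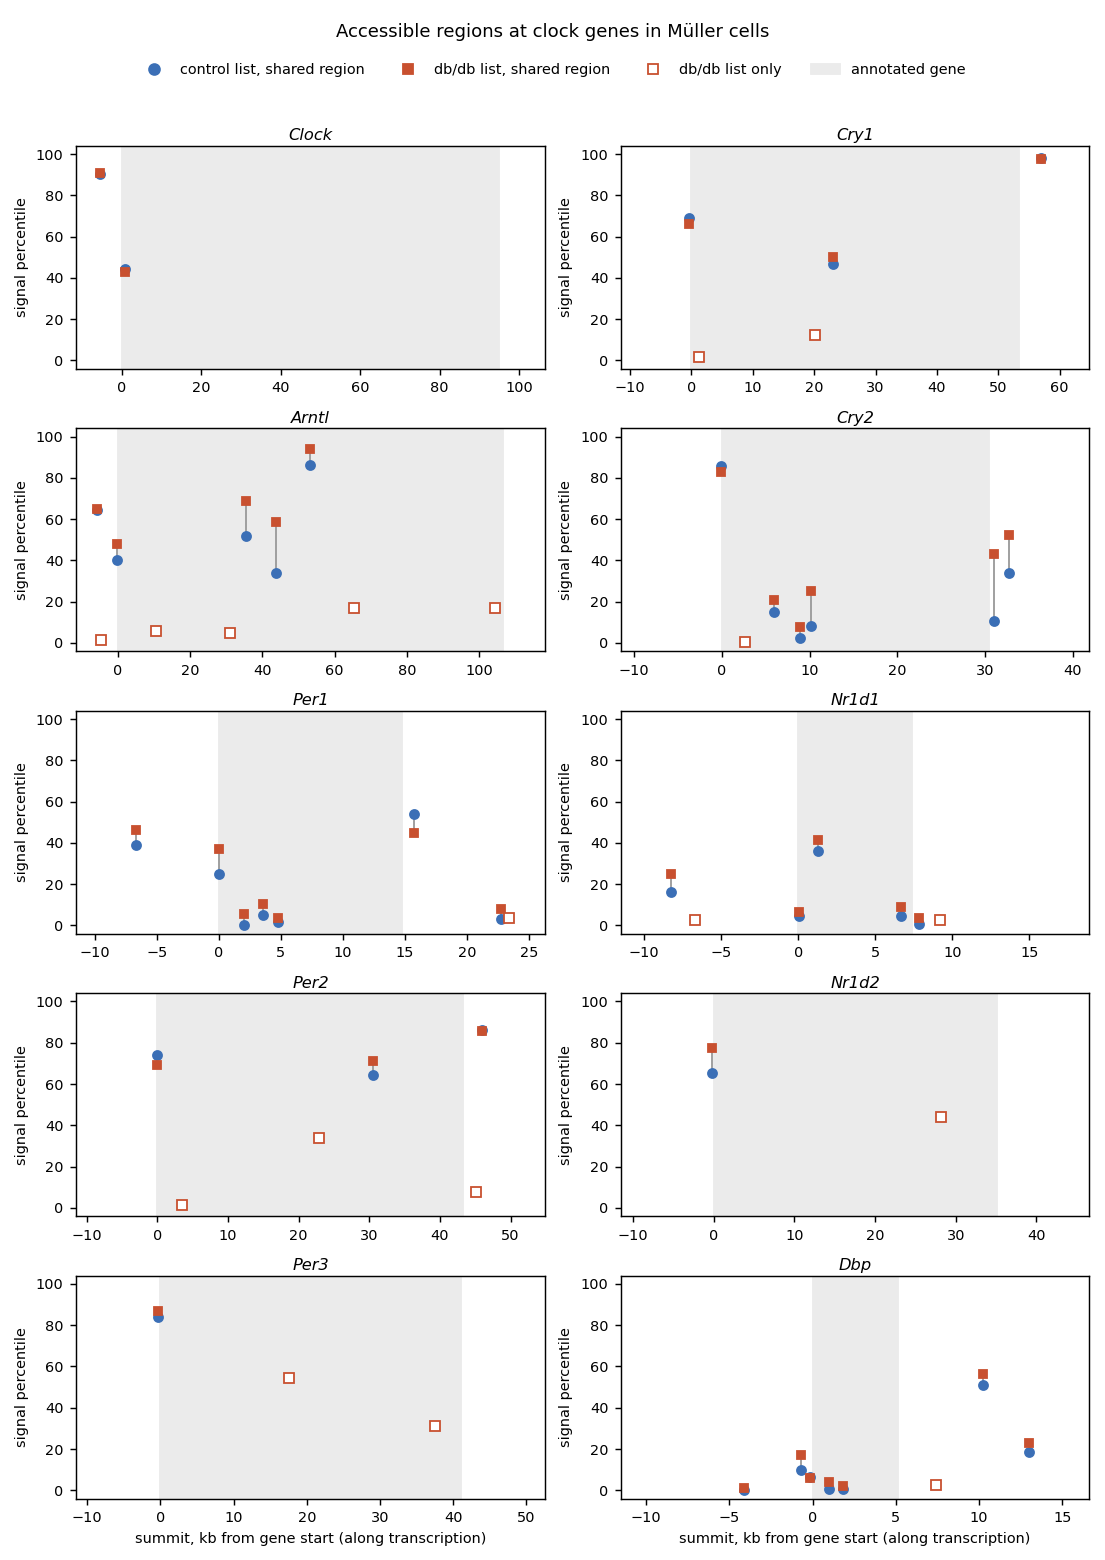
Signal percentile within each list (vertical axis) of every accessible region at the 10 clock genes against the distance of its summit from the gene start in kb (horizontal axis, in the direction of transcription). Blue circles are the control list, filled red squares the db/db list and open squares db/db-only regions, joined by a line where the region is shared; the open squares lie below 20 for 14 of 18 regions, and the tallest rise is at the 3' end of Cry2, from 10.7 to 43.3.

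Counted over all members, 0 of 40 control regions were control-only (95% Wilson interval 0 to 8.76%), against 4.16% of all control regions. Of the 58 db/db regions, 18 were db/db-only, which is 31.0% (20.6 to 43.8%) and near the 31.3% of all db/db regions. These intervals cover counting error only. The 18 regions were weak, with a median percentile of 5.24 and a range of 0.27 to 54.6, and 4 of them stood above 23.5, the median of that class over the whole list. These were intronic regions of Per3 (54.6 and 31.2), Nr1d2 (43.9) and Per2 (34.0). Introns held 12 of the 18 summits, 1 of the 18 regions was within 1 kb of a start site of its gene, and the db/db-only regions had a median width of 421.5 bp against 752.5 bp for the shared regions in the db/db list. At the edge of the window, the farthest region inside was 8438 bp from its gene (Per1) and the nearest outside 10394 bp (Nr1d1), both in the db/db list.

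Most shared regions moved up in the list but down in shared rank, and the sign depended on the measure. In list percentile 32 of the 40 were higher in db/db and 8 lower, with a median change of 4.66 points, against 8.53 over all regions. A rise of 10 points or more was seen in 7 of 40 (17.5%), against 44.6% of all regions with a single partner, and a fall of that size in 0 of 40, against 2.30%. In shared rank 14 were higher and 26 lower, with a median of -2.02. A rise of 10 points or more was then seen in 2 of 40 (5.00%), against 13.3% of all regions, and a fall of that size in 7 of 40 (17.5%), against 12.8%. Ranked by -log10 p, 14 were again higher and 26 lower, with 3 rises and 6 falls of 10 points or more. Over all regions the median change on this ranking was 0.20 points (SD 10.6). On both rankings the same direction by 10 points or more was found at 4 regions. These were falls at the Clock promoter, the 3' side of Per1 and the intron of Cry1 and a rise at the 3' end of Cry2. The share of all regions that changed as much by -log10 p, or on both rankings, was not computed, so these counts have no background.

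The arms were next set side by side, which asks whether the activator genes Clock and Arntl differed between genotypes in another way than their repressors. The activator arm had 7 control and 12 db/db regions in 241.6 kb and the repressor arm 26 and 38 in 365.3 kb. Per 100 kb these were 2.90 and 4.97 regions in the activator arm and 7.12 and 10.4 in the repressor arm. This density depends on gene length, and Clock and Arntl, at 94925 and 106662 bp, are the longest of the 10 genes. Some regions in the repressor windows also lie at start sites of neighbours, namely Vamp2, Hes6, Mterf2 and Mapk8ip1. The density over all genes was not computed, so no difference between the arms is read from these values. Dbp, with a window of 25.1 kb that takes in its neighbours, had 27.9 and 31.9 per 100 kb. The db/db-only share was 5 of 12 (41.7%, 19.3 to 68.0%) for the activators, all of it at Arntl, and 12 of 38 (31.6%, 19.1 to 47.5%) for the repressors, and these intervals overlap each other and the 31.3% of the whole list. For Dbp it was 1 of 8.

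The change in the shared regions did not set the arms apart. The median change in list percentile was 7.64 points for the 7 activator regions, 5.06 for the 26 repressor regions and 3.54 for the 7 at Dbp, and in shared rank it was -3.10, -1.96 and -1.72. The middle 50% of shared rank changes ran from -10.1 to 5.30 in the activator arm and from -7.42 to 0.51 in the repressor arm, so the former enclosed the latter. Within the activator arm the promoters of Clock and Arntl and their upstream regions were lower in shared rank, 4 regions in all. The 3 regions inside Arntl were higher by signal, but that at 35453 bp was lower by -log10 p (-4.62). Within the repressor arm 8 of 26 were higher and 18 lower, with medians of -2.60 for Per and Cry and -0.98 for the Nr1d genes.

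**Figure D2:**
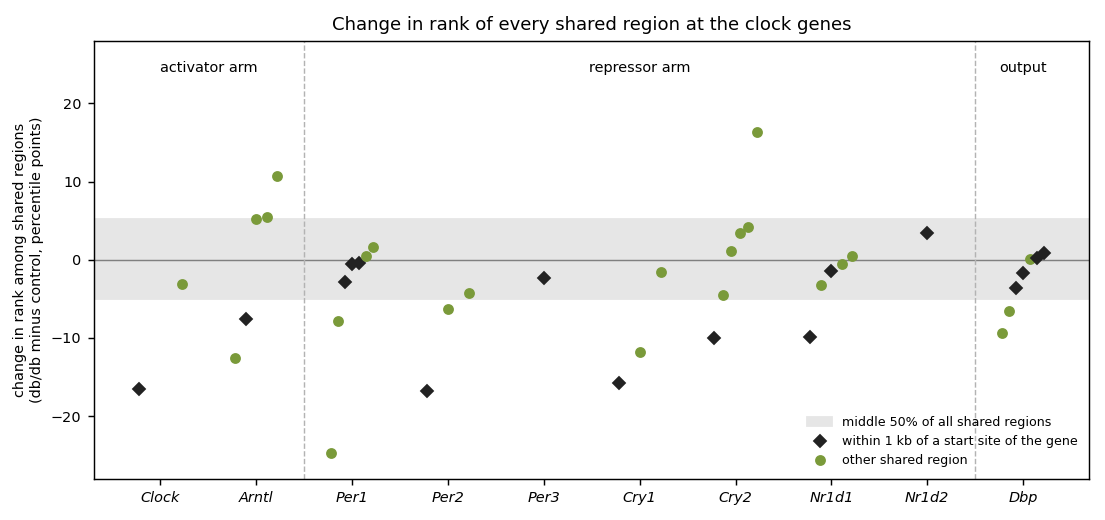
Change in shared rank, db/db minus control in percentile points, of the 40 shared regions, by gene and arm. Black diamonds are regions within 1 kb of a start site of the gene, green circles other regions, and the grey band the middle 50% of all 43519 shared regions (-4.99 to 5.26); the points run from -24.7 at Per1 to 16.3 at Cry2, and the ranges of the arms overlap.

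All 10 genes had a region within 1 kb of a start site in both lists, against 59.4% of 21938 protein-coding genes in the control and 62.5% in the db/db list. By signal these promoter regions were modest. Their median percentile was 54.9 in the control and 56.9 in the db/db list, against 78.0 and 80.7 over all promoters with a region, and 8 of 10 were below the median promoter in each list. Per3 and Cry2 were above it, Dbp, Per1 and Nr1d1 lowest. By -log10 p the order was different, and 8 of the 10 were above the median promoter of the control list (83.4), with a median of 92.7 in the control and 93.3 in the db/db list. The lowest by this value were Clock, at 80.4 and 75.4, and Dbp, at 82.0 and 83.0, and Cry2 was highest, at 99.8 and 99.6.

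**Figure D3:**
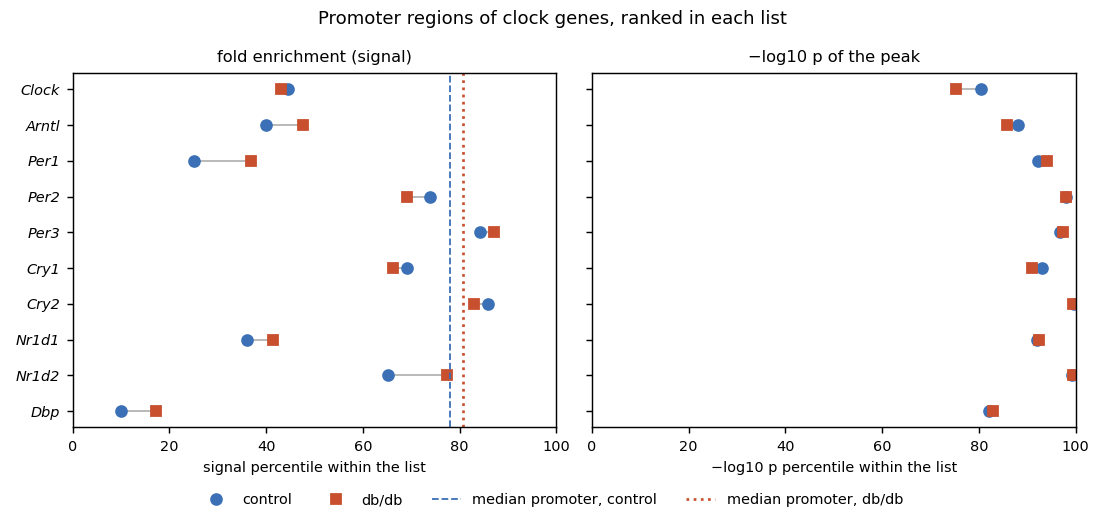
Percentile of the promoter region of each clock gene within the control (blue circles) and db/db list (red squares), by signal on the left and by -log10 p on the right, both on axes from 0 to 100. Vertical lines on the left are the medians over all promoters, 78.0 in the control and 80.7 in the db/db list; 8 of 10 genes lie left of them by signal, while all 10 lie above 75 by -log10 p in both lists.

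Between the lists, the promoter regions of 6 genes rose in list percentile and those of 4 fell. Of these, 2 rose by 10 points or more, Nr1d2 by 12.1 and Per1 by 11.7. The median change of the 10 was 4.04 points, near the 3.12 (SD 8.66) over 12408 promoters. The share of all promoters that rose by 10 points or more was not computed. In shared rank 9 of the 10 were lower in db/db, with a median of -8.69 points. Over all promoters the median was -1.23 (SD 8.23), and 61.1% of 11150 promoter regions were lower. Of the 11150, taken over every control rank, 12.9% were lower by 10 points or more. A fall of that size was seen at 4 of the 10 clock promoters, namely Per2, Clock, Cry1 and Cry2, which belong to both arms. Set against promoters in the same 10-point band of control rank, 8 of the 10 were below the median of their band. For Clock that median was -0.14 (SD 11.01, 743 promoters) against its own -16.6. For Per2, Cry1 and Cry2 it was -2.79, -3.17 and -2.49, against their own -16.82, -15.75 and -10.03. The lower quartiles of the bands of Clock, Per2, Cry1 and Cry2 were -7.69, -8.77, -9.61 and -6.48. The share of each band that fell by 10 points or more was not computed, so the 4 falls have no background matched for rank. By -log10 p the fall of the clock promoters was smaller, and the median of the 10 was -1.91 against -1.01 over all promoters. On that ranking only Clock, Arntl, Dbp and Cry1 changed by more than 5 points. Both activator promoters and 6 of the 7 repressor promoters were lower in shared rank.

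**Figure D4:**
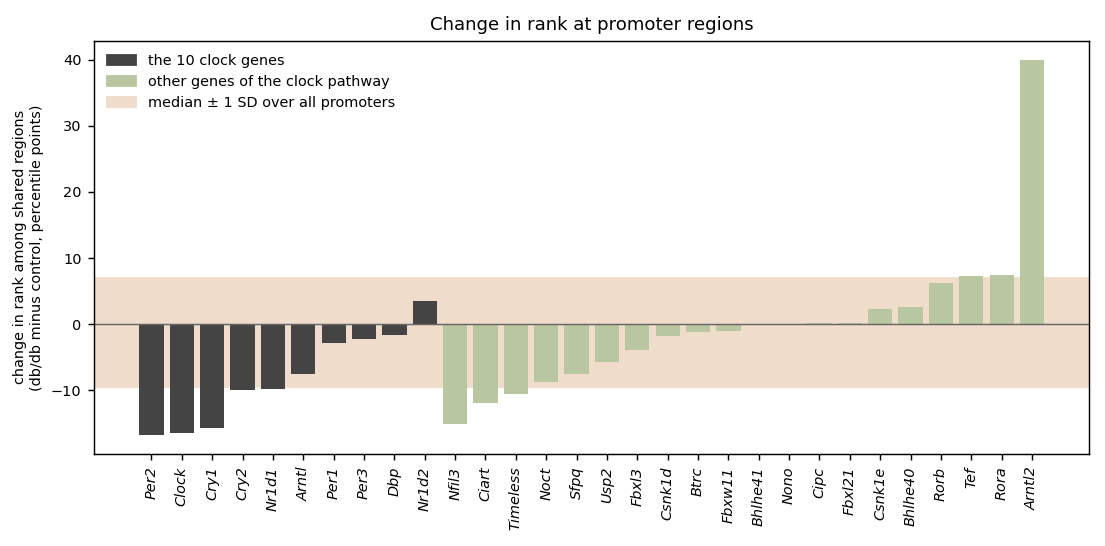
Change in shared rank of promoter regions, db/db minus control in percentile points, for the 10 clock genes (dark bars) and other genes of the pathway with the same region in both lists (green bars); the band is the median of all promoters and 1 SD to either side. Of the dark bars 9 are below 0, from -16.8 at Per2 to -1.72 at Dbp, and the tallest bar is Arntl2 at 40.1.

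The other genes of the pathway, a list of 23 that holds paralogues, ROR receptors, PAR bZIP factors, kinases and ubiquitin ligases of the clock, had 103 control and 150 db/db regions. Of these 4 (3.88%) were control-only and 51 (34.0%) db/db-only, against 4.16% and 31.3% over the whole lists. The 99 regions with a single partner had a median change of 9.50 points in list percentile, against 8.53 over all regions. Of the 99, 46 rose by 10 points or more and 4 fell by as much, against 44.6% and 2.30% of all such regions. In shared rank the median was -0.14, with 8 rises and 16 falls of that size, against 13.3% and 12.8% of all such regions. All 23 had a promoter region in both lists, and for 21 it was the same region.

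Among these promoters Arntl2, which encodes BMAL2 and is the paralogue of Arntl, stood apart. It went from percentile 38.1 to 83.6 and rose by 40.1 points of shared rank, or 31.1 by -log10 p, while the Arntl promoter changed by -7.53 and -8.34. List percentile also rose by 10 points or more at Bhlhe40 (16.2) and Bhlhe41 (13.9), bHLH repressors of the E-box, at Tef (14.9), a PAR bZIP factor, at the ROR receptor genes Rora (13.1) and Rorb (13.0), and at the kinase gene Csnk1d (12.0). In shared rank these 6 changed by 2.52, -0.16, 7.35, 7.46, 6.21 and -1.82 in that order. RORs and REV-ERBs bind the same element, and the promoters of Rora, Rorb and Nr1d2 were higher in shared rank while that of Nr1d1 was lower. Fbxl21, a ubiquitin ligase gene for cryptochromes, had the highest promoter (98.9 and 99.3) and Bhlhe40 the lowest (13.7 in the control list). Falls of 10 points or more in shared rank were at Nfil3 (-15.2), a repressor at D-boxes, Ciart (-12.0), a repressor of the activator complex, and Timeless (-10.5). By -log10 p these genes changed by -7.57, -0.57 and -16.4, so the fall at Ciart was nearly absent on that ranking. The strong db/db-only regions of the list, those above percentile 50, were 2 at Rora (66.3 and 58.6) and 1 each at Npas2 (60.02), the paralogue of Clock, and Sfpq (52.8).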

How the data were processed

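ATAC-seq peak lists of purified Müller cells were used, 1 for control and 1 for db/db animals aged 6 months, each attached by the labels to replicate 1 of its genotype. Lists for replicate 2, RNA-seq and read depths were not analysed here. The authors deposited for each peak its score, fold enrichment as the signal (a ratio), −log10 p, −log10 q and the summit. The labels give mm10, and the peak caller, its threshold and whether replicates were pooled are not given in the sources used here. Depth is unknown, so values were compared within a list only.

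Overlapping rows (81757 control and 109995 db/db) were merged to regions with the values of the row of highest signal. Regions that overlapped by at least 1 bp were shared. Genes and start sites were those of GENCODE M21, promoter sequences those of RefSeq (GRCm38). A promoter region was the region of highest signal within 1 kb of a start site. Python 3.11.15, numpy 2.4.6, pandas 2.3.3, scipy 1.17.1 and matplotlib 3.10.9 were used, and the steps were tested on simulated lists. All 10 genes and every region were named, with neighbours within 1 kb, and other pathway genes by a change of 10 points at the promoter, a db/db-only region above percentile 50 or the highest and lowest promoter; the shared-rank falls of Nfil3, Ciart and Timeless were chosen after their values were seen. One gene of the pathway list is counted but not reported by name here. The members and lists were chosen with earlier results of these data known. Alternatives were other windows, q values, lists of equal numbers, 50% overlap, unmerged rows, other percentiles and other arms; shared ranks by signal and by −log10 p were added after seeing the data.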

Additional observations from a re-analysis of the deposited data

How the results depend on the processing

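No paired analysis was possible because each genotype has a single peak list, and for the same reason no replicate could be left out and no test was made. Of 110 alternatives to 19 results, 76 gave a value close to the first one, counting 41 of 60 for the promoters of single genes. For these promoters, close meant within 11.2 points, the SD of the change over all regions, and 16 others moved. A change of sign was counted only for a first value above 11.2 points, which gave 3 reversals, all at Per1. Smaller values also changed sign, in shared rank at Arntl (7.73 to -7.53), Dbp (7.28 to -1.72), Nr1d1 (5.18 to -9.85) and Per3 (2.91 to -2.33). The number of regions moved with the window and with merging. With the annotated gene only there were 25 control and 37 db/db regions, and with every row counted 71 and 94. With the db/db list shortened by −log10 p to the length of the control list, the control-only regions went from 0 to 1 and the db/db-only regions from 18 to 9.

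The sign of the change in shared regions depended on which regions were ranked together. The median of all clock gene regions was 4.66 points in list percentile, -2.02 in shared rank, -0.97 in shared rank by −log10 p and -2.97 with lists of equal numbers, where the median over all regions was -0.89. For the activator arm these were 7.64, -3.10, -4.62 and -2.97, and for the repressor arm 5.06, -1.96, -0.44 and -2.54. The Per1 promoter went from 11.7 to -2.88, -0.36 and -9.54. The shared ranks leave out the weak db/db-only regions by construction. The lists of equal numbers kept 9 of the 18 db/db-only regions of clock genes and had 39616 pairs instead of 43519, and the cause of the change in sign there was not tested. All other medians kept their sign: the overlap of 50%, both narrower windows, the percentile of −log10 p, percentiles among promoters or other regions only, Dbp added to the activators and the Per and Cry genes as the only repressors. All 10 genes kept a promoter region in both lists with windows of 500 bp and 2 kb. Without depth or a second list, differences of a few points cannot be told from noise.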
